A study of Mus musculus with 30 samples.

Results

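The genes described here are 98 members of the solute carrier (Slc) superfamily whose transcripts were present in brain endothelial cells (ECs). Of 306 candidate symbols that start with Slc, a gene was chosen by its level, when its mean TPM (the length-normalized share of transcripts, summed over the transcripts of a symbol) reached 5 in the 2 libraries of acutely isolated adult brain ECs or in the 6 libraries of wild-type (WT) cultured brain ECs. The mitochondrial Slc25 family, the Slco family and 25 carriers that are mostly well known from the blood-brain barrier, such as Slc2a1 and Slc7a5, had been set aside by name. Of the 98 members, 51 passed through both groups, 12 through the acutely isolated ECs alone and 35 through the WT cultures alone, and 208 candidates passed through neither. Members close to the threshold on the inside were Slc35a5 (5.92 TPM) and Slc35e3 (5.97 TPM), and the closest outside were Slc29a3 (4.41 TPM), Slc41a2 (4.38 TPM) and Slc35c1 (4.36 TPM).

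Solute carriers are membrane proteins that move small polar molecules and ions across membranes, either down a gradient or coupled to the gradient of another ion or solute. Because tight junctions seal the brain endothelium, vitamins, amino acids, sugars, metals and ions reach the brain largely through such carriers in the luminal and abluminal membranes. Many others work inside the cell, for example the Slc35 family, whose characterised members bring nucleotide sugars into the Golgi and endoplasmic reticulum, and the zinc carriers of the Slc30 and Slc39 families. Sorted by family into substrate classes, the members comprised 18 genes of the Slc35 family, 17 carriers of amino acids, peptides or neurotransmitters, 16 of metal ions, 14 of chloride, bicarbonate, sodium, protons or calcium, 10 of vitamins, choline or cofactors, 6 of sugars or polyols, 6 of organic ions or bile acids, 3 of monocarboxylates or fatty acids, 2 of phosphate, 1 of nucleosides and 1 of heme. The remaining 4 (Slc9a3r1, Slc9a3r2, Slc4a1ap and Slc7a6os) carry a related symbol and are not carriers, and were kept because the rule is by symbol.

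The 14 RNA-seq and 10 ATAC-seq libraries used are those labelled brain and those of cultured cells, ATAC-seq being an assay that marks open chromatin. The labels also list 4 RNA-seq and 2 ATAC-seq libraries of cells sorted from cerebrum, which were not used as separate libraries here. The study made its adult brain EC data by combining data sets of cerebrum and cerebellum. The cerebrum libraries need therefore not be independent of the brain libraries. Acutely isolated ECs (2 RNA-seq and 2 ATAC-seq libraries) were GFP-positive cells sorted from the brains of adult male Tie2-GFP mice, in which GFP is driven by an endothelial promoter, and GFP-negative cells sorted from the brains of such mice gave 2 RNA-seq libraries. WT cultures (6 RNA-seq and 6 ATAC-seq libraries) were primary brain ECs of adult males kept for 8 days and purified with puromycin, which selects cells with the efflux pump P-glycoprotein. Replicates 1 and 2 came from C57BL/6J mice by isolation method A, and replicates 3 to 6 from Ctnnb1flex3/+;Tie2-GFP mice by method B, with no Cre allele. The study's methods and one of its legends differ on how many of the WT cultures came by method A. The methods text was followed, whose genotypes are those of the labels, so every value given by method, and each difference between methods, depends on that account. Stabilized cultures (4 RNA-seq libraries, replicates 1 and 2 by method A and 3 and 4 by method B, and 2 ATAC-seq libraries by method B) were Ctnnb1flex3/+;Pdgfb-CreER;Tie2-GFP, in which an endothelial, hydroxytamoxifen-inducible Cre removes an exon of the beta-catenin gene so that the protein is stabilized. Hydroxytamoxifen was given to the young pups, WT controls included as the study describes. A culture replicate is a well, with 2 wells per experiment and the brains of several mice pooled. Wells were fitted as independent replicates, so p-values over all cultures mix the spread between wells with that between experiments. Within a method, and for differences between methods, p-values and SEs measure the spread between wells alone. The chi-square per degree of freedom between the counts of 2 WT wells was 14.5 to 32.1 within an experiment and 463 to 999 between experiments.

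Library depth was 24284843 to 94686456 estimated counts. The acutely isolated cells were read as single reads and the cultures as paired reads, so read type and culture cannot be told apart, and WT replicates 3 and 4 were read at 150 cycles in another facility and the other cultures at 36. Nuclear protein-coding genes held 26.5 to 45.7% of the deposited TPM in the sorted cells and in the 36-cycle WT cultures but 94.1 and 94.3% in the 150-cycle cultures, in part because the short RNA Rn7s1 alone took 35.8 to 42.7% in the 36-cycle WT cultures and 0.509 and 0.596% in the 150-cycle ones. Levels below are therefore TPM divided by the share of TPM that nuclear protein-coding genes took in the same library. Membership, and the split of members by the group they passed through, used the deposited TPM. Over all tested genes the median log2 ratio of WT cultures to acutely isolated ECs was 0.642 on deposited TPM and 0.046 rescaled. On the rescaled scale 119 candidates would have reached 5. On that scale the members held 0.375 and 0.452% of the acutely isolated EC transcripts, 0.783 and 0.979% of the GFP-negative cells, 0.319 to 0.414% of the WT cultures and 0.355 to 0.439% of the stabilized cultures. The 7 endothelial markers (Pecam1, Cdh5, Tek, Kdr, Cldn5, Tie1 and Emcn) summed to 4240 to 5490 in acutely isolated ECs and 3090 to 9400 in WT cultures, against 16.1 and 65.7 in GFP-negative cells. Tek, Kdr and Cldn5 were lower in every WT culture than in both acutely isolated libraries, and Tie1 and Emcn were higher. Tek had 368 and 535 in acutely isolated ECs and 20.4 to 93.4 in WT cultures, and Emcn 313 and 435 and 1220 to 5460. Pecam1 and Cdh5 overlapped between these groups. The acutely isolated ECs also held transcripts of other cells. The 5 pericyte markers summed to 769 and 885 there, against 903 and 1340 in GFP-negative cells and 5.74 to 24.6 in WT cultures, and the 5 erythrocyte markers to 16900 and 101000 against at most 2.45 in WT cultures. The 4 smooth muscle markers summed to 530 and 724 in acutely isolated ECs, 13500 and 14900 in GFP-negative cells and 1100 to 7600 in WT cultures. They did not go the same way. Tagln (289 and 242 in acutely isolated ECs, 726 to 5790 in WT cultures), Acta2 and Cnn1 were higher in WT cultures. Myh11 was lower there (77.5 and 48.7 in acutely isolated ECs, 0.534 to 7.75 in WT cultures).

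The summed level of a class in acutely isolated and cultured ECs is shown in the plot of class sums. The ranges of WT cultures and acutely isolated ECs overlapped for the carriers of amino acids, ions, sugars, organic ions and monocarboxylates. The 14 ion carriers, for example, summed to 338 to 447 in acutely isolated ECs and 265 to 470.0 in WT cultures. Some overlaps were narrow. Amino acid carriers had 369 to 385 in acutely isolated ECs and 238 to 370 in WT cultures, where only the highest culture reached the acute range. Carriers of organic ions had 49.9 to 76.1 and 75 to 119. WT cultures were higher, with no overlap, for metal ions (621 to 725 in acutely isolated ECs, 844 to 994 in WT cultures), the Slc35 family (594 to 607 and 641 to 935) and phosphate (17.1 to 48.5 and 143 to 401). They were lower, with no overlap, for vitamins and choline (456 to 758 and 260.0 to 357) and for the 4 genes that are not carriers. These sums are descriptions, since the levels of both groups chose the members. Within a class, members often lay in opposite directions.

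**Figure D1:**
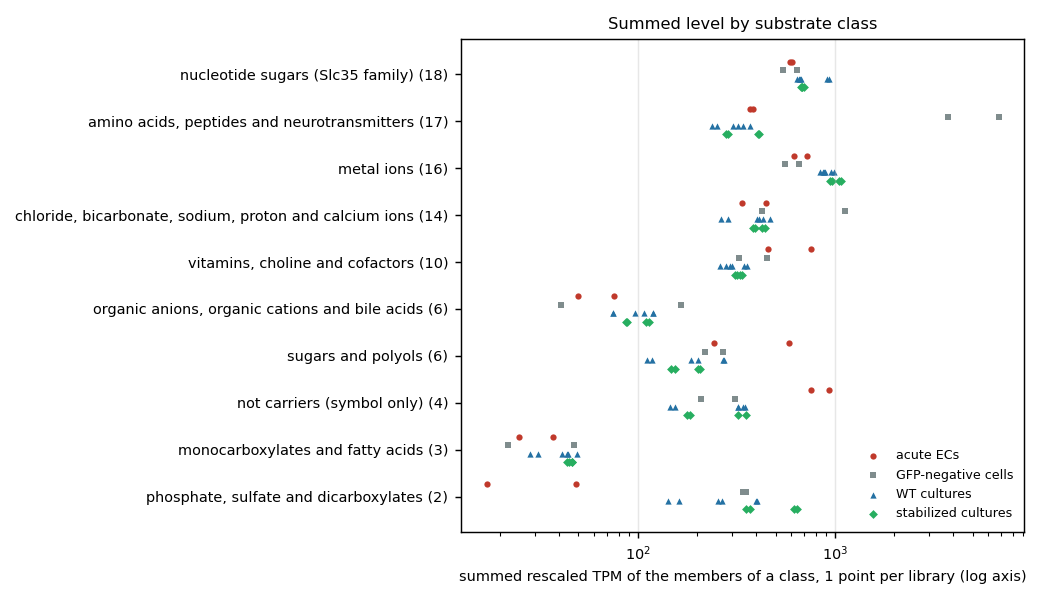
Summed rescaled TPM (x axis, log scale) of the members of each substrate class with at least 2 members (rows, number of members in brackets), 1 point per library, for acutely isolated ECs, GFP-negative cells, WT cultures and stabilized cultures. The phosphate carriers lie at 17.1 to 48.5 in acutely isolated ECs and 143 to 401 in WT cultures, and the amino acid carriers reach 3750 to 6790 in GFP-negative cells.

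Culture was set against acute isolation first. To be called, a gene needed an adjusted p under 0.05 over all tested genes, a fold change over 2 and no replicate of the higher group under 5 TPM. By this rule 19 members were higher and 12 lower in WT cultures, 31 in either direction, and 67 were not called. Among all 13785 protein-coding genes tested, 13.5% were called higher, 10.2% lower and 23.8% in either direction. The rescaled levels did not overlap in 37 members that were higher and 21 that were lower in culture, and in 28.3 and 25% of all genes. The levels of these groups chose the members, so the counts and the fold changes below describe them, no test is given and nothing is read from the share. The median log2 fold change was 0.32 over the members and 0.10 over all genes tested. The 19 comprised 6 of the 18 Slc35 members, 6 of 16 metal ion carriers, 2 ion carriers, 2 of the vitamin and choline class, and 1 each of the phosphate, sugar and organic ion classes. The 12 comprised 4 of the 10 vitamin and choline carriers, 3 of 17 amino acid carriers, 2 ion carriers, 2 Slc35 members and Slc9a3r2. Of these 31, 17 held under all 17 alternatives tried, and Slc4a2 was lost in 10, Slc35b2 in 7 and Slc44a2 in 6. Without acute replicate 1 there were 13 higher and 9 lower, and when both wells of an experiment were added up, 15 higher and 7 lower.

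**Figure D2:**
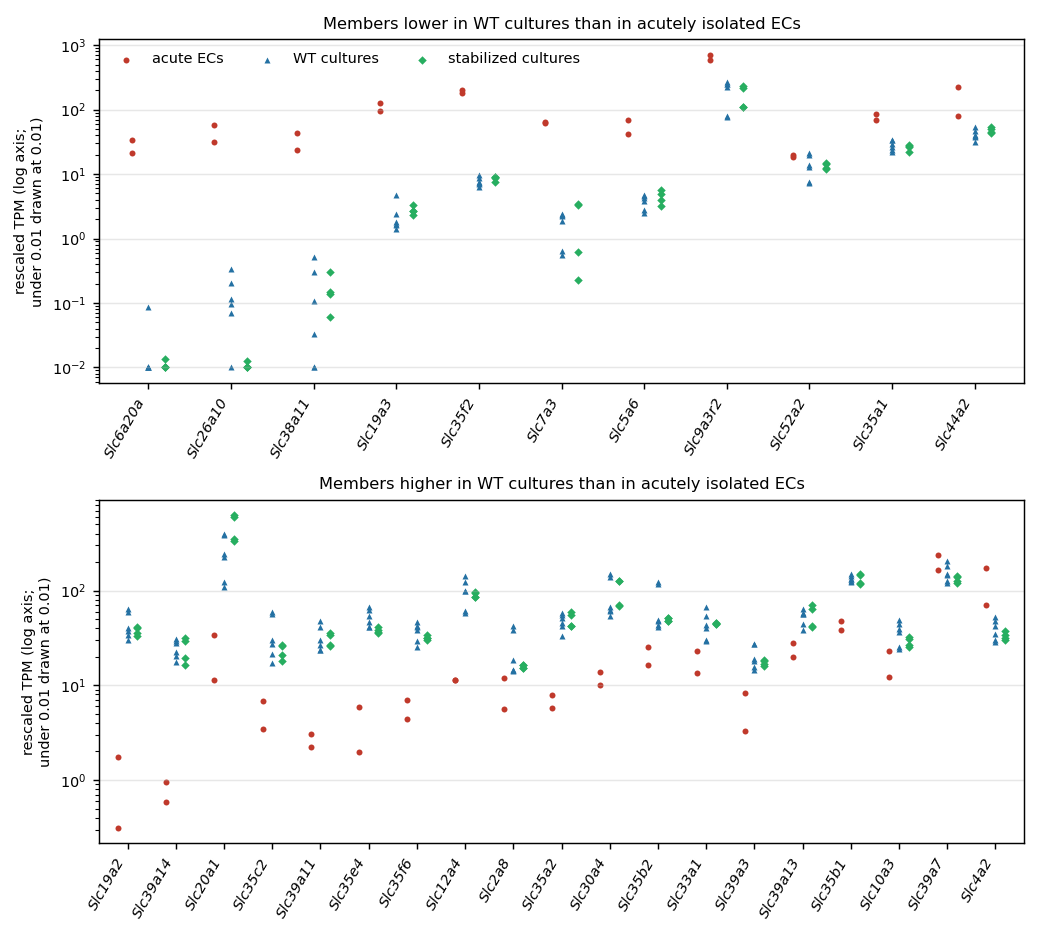
Rescaled TPM (y axis, log scale, values under 0.01 drawn at 0.01) of 11 of the 12 members called lower (top) and the 19 called higher (bottom) in WT cultures, 1 point per library, for acutely isolated ECs, WT cultures and stabilized cultures. Slc19a3 lies at 126 and 94.1 in acutely isolated ECs and 1.43 to 4.76 (median 1.75) in WT cultures, Slc19a2 at 0.31 and 1.76 and 30.4 to 64.4 (median 38.7), and for Slc39a7 and Slc4a2 the acutely isolated libraries reach the highest points although their counts gave a higher value in culture.

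The second comparison, acutely isolated ECs against the GFP-negative cells, asks which carriers are enriched in the endothelium. Of 98 members 13 were higher and 13 lower in ECs with edgeR's quasi-likelihood test and the same rule, against 8.3 and 7.56% of 15101 genes. Levels did not overlap in 23 members that were higher and 39 that were lower in ECs, and in 18.1 and 43.7% of all genes. Since EC levels entered the choice of members, these counts are no result about them. Scaling by library size alone gave 10 higher and 18 lower, and moved the median over all tested genes from -0.06 to -0.44 on the log2 scale. The median log2 ratio of the rescaled levels themselves was -0.55 over all genes, so the levels of a gene in GFP-negative cells stand somewhat higher beside those in ECs than its fold change does. The direction of the calls ran across classes, with 5 of the 10 vitamin and choline carriers among the higher 13 and both phosphate carriers among the lower 13. The 12 members that passed through the acutely isolated ECs alone had been chosen for their level there, so no p is given for them in this comparison and their fold changes, with SE and n = 2 and 2, are descriptions. Both comparisons share the acutely isolated libraries. Of the 26 calls, 11 held in all 11 alternatives tried, those of Slc19a3, Slc1a3, Slc20a2, Slc35c2, Slc35f2, Slc38a1, Slc39a6, Slc52a2, Slc52a3, Slc7a3 and Slc9a3r2. Without GFP-negative replicate 1 there were 10 higher and 7 lower, without GFP-negative replicate 2 8 higher and 8 lower, without acute replicate 1 11 higher and 13 lower and without acute replicate 2 12 higher and 11 lower. With an offset for transcript length 7 were higher and 5 lower.

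**Figure D3:**
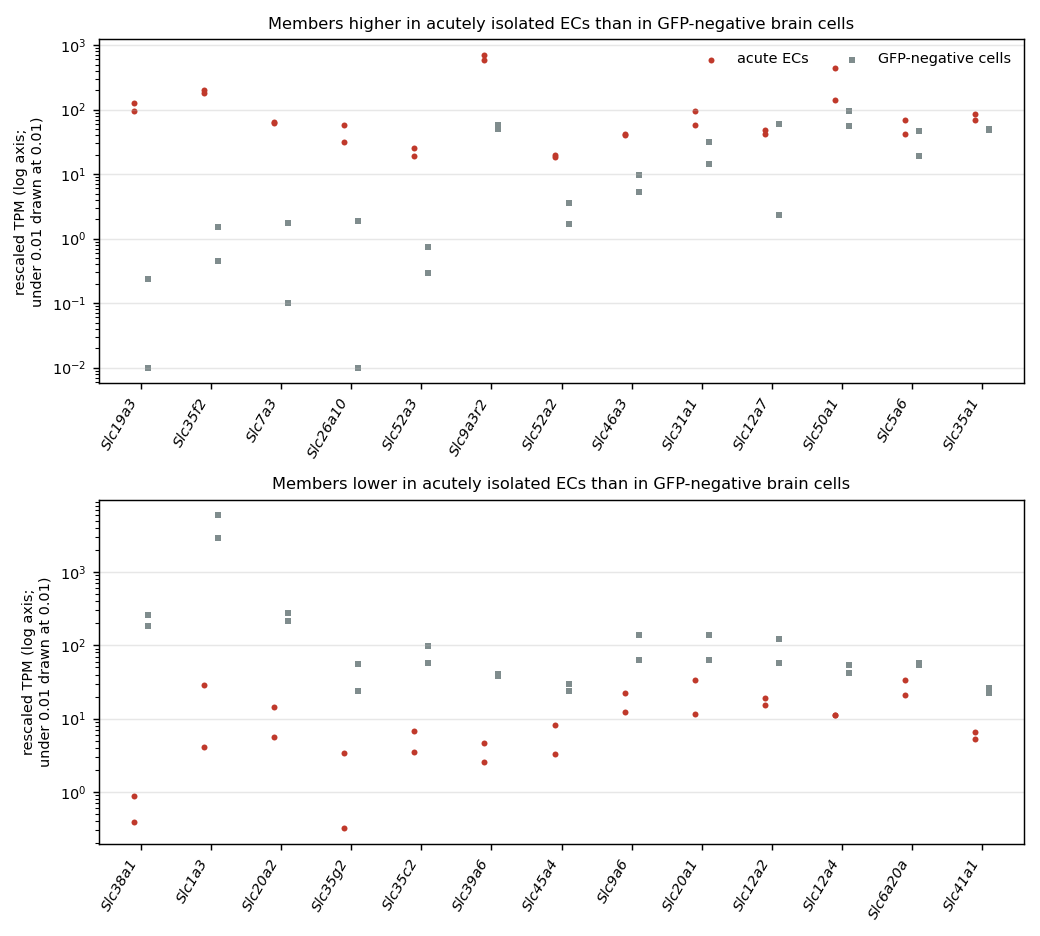
Rescaled TPM (y axis, log scale, values under 0.01 drawn at 0.01) of the 13 members called higher (top) and the 13 called lower (bottom) in acutely isolated ECs than in GFP-negative brain cells, 1 point per library, ordered by fold change. Slc35f2 lies at 180.1 and 198 in ECs and 1.53 and 0.45 in GFP-negative cells, Slc1a3 at 4.07 and 29.2 and 2906 and 5941, and the groups of Slc12a7 and Slc5a6 overlap.

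Among the vitamin carriers, the 2 thiamine transporters of the Slc19 family stood at opposite ends. Slc19a3 (chr1:83012523-83038448 on GRCm38, minus strand) had 126 and 94.1 TPM in the acutely isolated ECs, 0.24 and 0 in GFP-negative cells, 1.43 to 4.76 (median 1.75) in WT cultures and 2.68, 2.34, 3.27 and 2.71 in stabilized cultures. Every acutely isolated library was thus far above every other library. The count fold change of WT cultures against acutely isolated ECs was -5.36 ± 0.25 on the log2 scale (SE, n = 6 and 2). Of the GFP-negative libraries, 1 held 32 counts and the other none. Slc19a2 (chr1:164249046-164265385, plus strand) showed the reverse order, with 0.31 and 1.76 TPM in acutely isolated ECs, 30.4 to 64.4 (median 38.7) in WT cultures and 33.2, 35.9, 40.7 and 41.1 in stabilized cultures, a log2 difference of 4.77 ± 0.72. In GFP-negative cells it had 4.66 and 2.92 TPM, and that comparison was not called (adjusted p = 0.292 with edgeR). In each acutely isolated library the Slc19a3 level was above that of Slc19a2, and in each of the 10 cultures it was below it.

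The riboflavin transporters Slc52a2 and Slc52a3 were both enriched in ECs. Slc52a3 had 19.1 and 25.8 TPM in acutely isolated ECs and 0.30 and 0.74 in GFP-negative cells (log2 fold change 5.89 ± 0.74 (SE), adjusted p = 0.00377, edgeR), and Slc52a2 had 19.6 and 18.7 and 1.67 and 3.6 (log2 fold change 3.0 ± 0.50 (SE), adjusted p = 0.00907). In WT cultures Slc52a3 had 9.70 to 17.5 (median 13.8) TPM, every culture below both acutely isolated libraries (-0.88 ± 0.28), and was not called. Slc52a2 was called lower in culture by counts (-1.48 ± 0.42), although its levels of 7.17 to 21.2 (median 13.4) in WT cultures overlapped those of the acutely isolated ECs. With the offset for transcript length its value was -0.50 and the call was lost. The multivitamin transporter Slc5a6, which carries biotin and pantothenate with sodium, had 42.0 and 68.2 TPM in acutely isolated ECs and 2.45 to 4.73 (median 4.08) in WT cultures, with no overlap (-3.22 ± 0.37). Its levels in GFP-negative cells, 18.9 and 46.5, reached into the EC range, and that call (log2 fold change 1.47 ± 0.44) was lost in 9 of 11 alternatives. The lysosomal carrier Slc46a3 was higher in ECs (41.6 and 40.5 TPM) than in GFP-negative cells (5.33 and 9.80 TPM, log2 fold change 2.71 ± 0.47 (SE), adjusted p = 0.00989, edgeR), a call lost without GFP-negative replicate 1. In culture it differed by experiment, with 54.4 and 58.2 TPM in method A, 17.4 and 17.0 in the 150-cycle and 9.56 and 11.9 in the 36-cycle method B wells.

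The choline-transporter-like genes were abundant in every group. Slc44a1 had 199 and 101 TPM in acutely isolated ECs, 142 and 77.4 in GFP-negative cells and 69.9 to 109.7 (median 94.7) in WT cultures, and no comparison called it. Slc44a2 had 222 and 78.8 TPM in acutely isolated ECs and 31.5 to 54.3 (median 39.4) in WT cultures (-1.01 ± 0.30), with the lower acutely isolated library still above every culture. Slc33a1, the acetyl-CoA transporter of the endoplasmic reticulum, was called higher in culture, with 23.2 and 13.4 TPM in acutely isolated ECs and 29.1 to 66.8 (median 41.6) in WT cultures (1.60 ± 0.35), a call lost with the offset for transcript length. Of its exonic bases 32.0% lie in exons of Gm26850 on the opposite strand. The ascorbate transporter Slc23a2 ranged more widely within the acutely isolated ECs (65.8 and 13.2 TPM) than within the WT cultures (16.7 to 37.1 (median 22.3)).

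Of the 17 amino acid carriers, Slc7a3, a carrier of cationic amino acids, was the one called higher in ECs. It had 64.0 and 61.4 TPM in acutely isolated ECs, 1.75 and 0.10 in GFP-negative cells (log2 fold change 7.65 ± 0.86), 0.56 to 2.41 (median 2.07) in WT cultures and 0.62, 0.23, 3.41 and 3.30 in stabilized cultures. The count fold change with culture was -4.70 ± 0.59, and within both culture genotypes the method A wells were the lowest. Slc38a1, a sodium-coupled carrier of glutamine and other neutral amino acids, was the member furthest on the other side, with 0.88 and 0.39 TPM in ECs and 182 and 260.2 in GFP-negative cells (log2 fold change -8.00 ± 0.76 (SE), adjusted p = 0.00200, edgeR). It had 3.44 to 19.6 (median 8.98) TPM in WT cultures, where the 36-cycle method A wells gave 3.44 and 3.68 and the 150-cycle wells 19.6 and 17.7. Slc1a3, the glutamate transporter of astrocytes, had 2906 and 5941 TPM in GFP-negative cells and 4.07 and 29.2 in ECs (log2 fold change -7.52 ± 1.01), and at most 0.12 in any WT culture, where 0 to 10 counts were found per library. It could not be called between culture and acute isolation, since 1 acutely isolated library was under the TPM minimum. The 5 astrocyte markers summed to 3230 and 5800 in GFP-negative cells, 208 and 1450 in the acutely isolated ECs and 10.0 to 48.6 in WT cultures. In the acutely isolated ECs that sum was mostly Gja1 (1440 and 163 TPM). The other astrocyte markers differed there, with 1.34 and 1.9 for Aqp4 and 0.657 and 0.783 for Gfap. Aldh1l1 had 0.0984 and 20.5 and Aldoc 5.75 and 21.6, both higher in the library with more Slc1a3. The part of astrocyte RNA in the Slc1a3 values was not tested.

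For a further pair of this class, the sorted ECs held less than the GFP-negative cells and the cultures next to nothing. Slc6a20a, a proline transporter, had 33.4 and 20.8 TPM in acutely isolated ECs (1330 and 1263 counts) and 53.7 and 57.0 in GFP-negative cells (log2 fold change -1.5 ± 0.39), and 1 count over the 6 WT cultures. Slc38a11, a little-studied relative of the glutamine carriers, had 44.0 and 23.6 TPM and 141 and 174 (log2 fold change -1.85 ± 0.56, not called), with 0 to 12 counts per WT culture against 2239 and 617 in the acutely isolated ECs. All 5 pericyte markers were detected in some WT cultures, where they summed to 5.74 to 24.6 TPM against 769 and 885 in the acutely isolated ECs. Rgs5, with 653 and 794 TPM, made up most of the latter sum and had at most 2.99 in WT cultures. Kcnj8 and Abcc9 had 17.2 to 35.5 TPM in the acutely isolated ECs and at most 0.304 in WT cultures. Pdgfrb (34.7 and 33.5 TPM) kept 3.04 to 10.3 in WT cultures, and Cspg4 (10.7 and 11.1 TPM) had 2.49 to 13.0 there, so that 1 culture was above both acutely isolated libraries. The part of mural cell RNA in these values was not tested. Slc6a20a also shares sequence with its paralog Slc6a20b, so reads may be split between them, and the call against GFP-negative cells was lost in 6 of 11 alternatives.

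The other 14 amino acid carriers were not called between culture and acute isolation. Slc38a10 had 43.5 and 74.7 TPM in acutely isolated ECs and 52.9 to 70.9 (median 61.9) in WT cultures. Slc43a3, which is known to take up purine bases, was higher in the cultures (10.2 and 1.47 TPM in acutely isolated ECs, 12.1 to 69.5 (median 42.0) in WT cultures) with no overlap, and was not called. Its WT wells ran from 61.7 and 69.5 in method A to 12.1 and 15.1 in 36-cycle method B. The creatine transporter Slc6a8 had 41.2 and 56.8 TPM in acutely isolated ECs, 5.53 and 5.28 in the 150-cycle cultures and 19.0 to 27.8 in the other WT cultures.

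Of the 14 ion carriers, Slc26a10 (chr10:127171393-127180645, minus strand), a member of the sulfate and anion exchanger family, had 31.4 and 57.4 TPM in acutely isolated ECs and 1.88 and 0 in GFP-negative cells (log2 fold change 6.54 ± 1.74), and 0 to 5 counts in any culture against 1552 and 2640. The GFP-negative signal came from 1 library with 53 counts, the other had none, and the call was lost in 3 of 11 alternatives, with the length offset, with the replicate number as a block and without acute replicate 2. Of its exonic bases 17.8% lie in exons of B4galnt1 on the opposite strand. The potassium-chloride cotransporters, which drive salt out of the cell, were not called alike. Slc12a4 was called higher in culture (11.4 and 11.3 TPM in acutely isolated ECs, 57.5 to 144 (median 99.5) in WT cultures, 2.23 ± 0.45). Slc12a7 had 42.5 and 49.0 TPM in acutely isolated ECs and 12.9 to 40.5 (median 28.5) in WT cultures and was not called there. Its call against GFP-negative cells (58.8 and 2.31 TPM, log2 fold change 2.22 ± 0.56 (SE), adjusted p = 0.0311, edgeR) was lost with the length offset and without GFP-negative replicate 2 or either acutely isolated library. The sodium-potassium-chloride cotransporter Slc12a2, which brings salt in, was lower in ECs (19.0 and 15.4 TPM) than in GFP-negative cells (122 and 57.8 TPM, log2 fold change -1.66 ± 0.45 (SE), adjusted p = 0.0372, edgeR), a call lost with the length offset and without GFP-negative replicate 1 or acute replicate 2. In WT cultures it had 56.4 to 90.1 (median 64.8), above both acutely isolated libraries, and was not called.

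For the anion exchanger Slc4a2 the direction depended on transcript length. The count fold change with culture was 1.12 ± 0.40, yet the TPM was 70.9 and 174 in acutely isolated ECs and 28.4 to 52.3 (median 38.3) in WT cultures, and with the length offset the value was -1.60. In the acutely isolated libraries most of the TPM was assigned to noncoding transcripts of 234 and 332 bases (151 TPM for Slc4a2-210 in 1 library, 60.9 TPM for Slc4a2-207 in the other). The transcript of 4179 bases, Slc4a2-201, had at most 0.838 TPM there and 20.9 to 39.2 in WT cultures. Slc39a7 showed the same contrast between counts and offset, with 1.18 ± 0.34 by counts and -0.43 with the offset. Its coding transcript of 2320 bases had 31.4 and 21.8 TPM in the acutely isolated libraries and 97.9 to 157 in WT cultures. Another coding transcript, of 620 bases, had 173 and 18.4 TPM in the acutely isolated libraries. In WT cultures it had 22.7 in replicate 6 and 0 in the others. A noncoding transcript of 277 bases had 33 and 115 TPM in the acutely isolated libraries and 1.17 to 5.76 in WT cultures. The coding transcripts of Slc39a7 thus did not all rise in culture. Slc4a2 and Slc39a7 were the members whose called direction changed sign under the offset. Their transcripts were examined after their values had been seen. Reads of Slc39a7 are uncertain also because 80.7% of its exonic bases lie in exons of Gm20427 on the same strand.

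The metal ion carriers included none that was called lower in culture. The 6 called higher were zinc carriers, namely Slc39a14, Slc39a11, Slc39a13, Slc39a3 and Slc39a7, which move zinc into the cytoplasm, and Slc30a4, which moves it into vesicles, and of these Slc39a7 changed sign under the length offset. Slc39a14, which also carries iron and manganese (chr14:70303469-70351425, minus strand), had 0.58 and 0.95 TPM in acutely isolated ECs, 17.5 to 30.7 (median 25.0) in WT cultures and 31.5, 29.2, 16.5 and 19.3 in stabilized cultures (4.75 ± 0.62). Slc39a11 had 2.24 and 3.03 and 23.3 to 48.0 (median 28.3) TPM (3.21 ± 0.48), and Slc30a4 9.96 and 13.8 and 53.9 to 151 (median 64.3) (1.82 ± 0.51). None of the 3 overlapped between the groups, and the call of Slc30a4 was lost without either acutely isolated library. Slc30a9 was abundant in every group, with 58.7 and 63.2 TPM in acutely isolated ECs and 66.1 to 182 (median 164) in WT cultures, and was not called. Slc39a6, another zinc importer, was lower in ECs (2.53 and 4.71 TPM) than in GFP-negative cells (41.1 and 38.0 TPM, log2 fold change -2.73 ± 0.45 (SE), adjusted p = 0.00880, edgeR). Slc39a1 differed by experiment, with 182 and 129 TPM in acutely isolated ECs, 138 and 138 in method A, 171 and 183 in 36-cycle method B and 14.3 and 14.4 in the 150-cycle wells. The cause of the low level in the 150-cycle wells was not tested. The copper importer Slc31a1 was higher in ECs (93.7 and 57.0 TPM) than in GFP-negative cells (31.0 and 14.2 TPM, log2 fold change 2.25 ± 0.58 (SE), adjusted p = 0.0328, edgeR), a call lost with the length offset and without GFP-negative replicate 2 or acute replicate 1. In WT cultures it ran from 16.0 and 25.7 in method A to 129 and 121 in the 150-cycle wells, a range that encloses both acutely isolated values.

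Of the phosphate carriers, Slc20a1 (chr2:129198764-129211616, plus strand), a sodium-phosphate cotransporter, was the member with the highest mean level in WT cultures. It had 11.5 and 34.1 TPM in acutely isolated ECs and 110.0 to 393 (median 237) in WT cultures (4.26 ± 0.58), and the lowest culture was still above the higher acutely isolated library. The GFP-negative cells had 139 and 63.4 TPM (log2 fold change -1.88 ± 0.42 (SE), adjusted p = 0.0212, edgeR, lost with the length offset and without GFP-negative replicate 1 or 2). Its paralog Slc20a2 was lower in ECs by a wider margin (5.63 and 14.3 TPM against 215 and 278, log2 fold change -4.97 ± 0.38 (SE), adjusted p = 0.00165, edgeR), and with 7.93 to 39.2 (median 25.4) TPM in WT cultures the groups overlapped.

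The Slc35 family held both ends as well. Slc35f2 (chr9:53771538-53818154, plus strand), whose physiological substrate is less settled than those of the nucleotide sugar carriers, had 180.1 and 198 TPM in acutely isolated ECs, 1.53 and 0.45 in GFP-negative cells (log2 fold change 7.85 ± 0.75), 6.30 to 9.54 (median 7.30) in WT cultures (-4.86 ± 0.21) and 9.0, 8.63, 9.06 and 7.63 in stabilized cultures. All 10 cultures thus lay close together and far below the acutely isolated ECs. Slc35a1, the CMP-sialic acid transporter, was also lower in culture (69.7 and 85.0 TPM in acutely isolated ECs, 22.3 to 33.8 (median 28.1) in WT cultures, -1.47 ± 0.33). Its call against GFP-negative cells (49.7 and 49.1 TPM, log2 fold change 1.28 ± 0.37 (SE), adjusted p = 0.0467, edgeR) was lost in 9 of 11 alternatives. The UDP-galactose transporter Slc35a2 had 5.78 and 7.98 TPM in acutely isolated ECs and 33.5 to 57.7 (median 48.5) in WT cultures (1.88 ± 0.49), and Slc35b2, which carries the sulfate donor PAPS, 16.5 and 25.5 and 41.7 to 124 (median 48.0) (1.79 ± 0.65). Slc35c2, a regulator of fucosylation, had 6.80 and 3.47 TPM in ECs, 58.1 and 96.5 in GFP-negative cells (log2 fold change -3.43 ± 0.58 (SE), adjusted p = 0.00931, edgeR) and 17.2 to 59.7 (median 28.5) in WT cultures (3.44 ± 0.64). Slc35b1, which exchanges ATP and ADP across the endoplasmic reticulum membrane, and the orphans Slc35e4 and Slc35f6 made up the rest of the 6, with log2 differences of 1.37 ± 0.31, 2.97 ± 0.40 and 2.25 ± 0.38. None of these 6 overlapped between acutely isolated and WT cultured libraries. Slc35g2, another orphan, had 0.32 and 3.35 TPM in acutely isolated ECs and 11.2 to 55.0 (median 23.9) in WT cultures and was not called there.

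Among the sugar carriers, Slc50a1, a glucose transporter of the SWEET family, was the most abundant, with 436 and 141 TPM in acutely isolated ECs, 95.4 and 56.7 in GFP-negative cells and 59.2 to 168 (median 102) in WT cultures. The 2 acutely isolated libraries differed 3-fold, and the call against GFP-negative cells (log2 fold change 1.70 ± 0.43 (SE), adjusted p = 0.0301, edgeR) was lost in 5 of 11 alternatives. Slc2a8, an intracellular glucose transporter, was higher in culture (5.67 and 11.9 and 14.1 to 42.2 (median 16.5) TPM, 1.95 ± 0.52), a call lost with the length offset and without acute replicate 1. Slc45a4 had 3.26 and 8.10 TPM in acutely isolated ECs, and its WT wells spread from 5.35 and 3.69 in 36-cycle method B to 32.8 and 47.7 in method A. The myo-inositol carrier Slc5a3 had 9.82 and 23.4 and 3.44 to 7.06 (median 4.31) TPM, with the cultures below both acutely isolated libraries and no call. Of the smaller classes, the equilibrative nucleoside transporter Slc29a1 had 71.5 and 10.7 TPM in acutely isolated ECs and 20.4 to 81.7 (median 48.4) in WT cultures, the heme transporter Slc48a1 43.2 and 77.5 and 55.4 to 178 (median 67.6), and the bile acid carrier relative Slc10a3 12.3 and 23.0 and 23.9 to 49.4 (median 37.9) (called higher, 1.19 ± 0.35). The 3 monocarboxylate and fatty acid members, Slc16a13, Slc16a6 and Slc27a4, were called in neither comparison.

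The member with the highest level in acutely isolated ECs is no carrier. Slc9a3r2, a PDZ scaffold protein that tethers transporters and receptors to the cytoskeleton, had 701 and 582 TPM in acutely isolated ECs, 50.6 and 58.1 in GFP-negative cells (log2 fold change 4.48 ± 0.41 (SE), adjusted p = 0.00187, edgeR) and 76.4 to 268 (median 234) in WT cultures (-1.82 ± 0.44). The paralog Slc9a3r1 had 14.9 and 36.9, 58.0 and 108 and 19.7 to 38.8 (median 31.3) TPM and was not called.

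Stabilized beta-catenin was compared with WT in culture, to ask whether this signal changes the carriers. Over all 4 stabilized and 6 WT libraries, none of the 94 members tested was called in either direction with edgeR's quasi-likelihood test, and none of the 12959 genes tested (0% of them). At an unadjusted p under 0.05 there were 7 members and 1344 genes, and DESeq2 called 0 members and 15 genes higher and 3 lower. The absence of calls depended on the fit. With the isolation method as a term over the 8 libraries of 36 cycles, 1 member (Slc43a2) was higher and 0 were lower, against 0.511% and 0.0774% of 12922 genes, and with the replicate number as a block 0 members were called, against 1.15% of all genes higher and 0.185% lower. In 94 of the 98 members the levels of the groups overlapped. The median log2 fold change was -0.13 over the members and -0.04 over all genes. Levels in every stabilized library were above those in every WT library for 4 members, among them Slc37a3, Slc39a1 and Slc4a7, where 2.71% of all genes were, and 0 members were lower without overlap, where 1.58% of all genes were.

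Within an isolation method the same rule called more. In method A (2 wells of 1 experiment for each genotype) 7 members were higher and 1 was lower, against 5.39 and 0.918% of the 12849 genes tested, and in 36-cycle method B 1 member was higher and 0 were lower, against 1.08 and 0.288% of 12836. Genotype and experiment cannot be told apart within a method. Slc43a2, a carrier of large neutral amino acids, was the one called in both. Its levels were 19.2 and 24.9 TPM in WT and 63.6 and 62.8 in stabilized wells of method A, 18.6 and 18.2 and 37.4 and 39.0 in 36-cycle method B, and 51.5 and 42.7 in the 150-cycle WT wells. The log2 fold changes were 1.33 ± 0.10 and 1.08 ± 0.06 (edgeR), and the difference between methods had an adjusted p of 0.178. Slc20a1 went the same way without being called, with 393 and 389 against 602 and 624 TPM in method A and 229 and 245 against 333 and 352 in method B.

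The other 7 calls of method A were not made in method B, and for each of them the log2 fold change differed between the methods at an adjusted p under 0.05 (edgeR). Slc35e3 had 1.83 and 2.38 TPM in the WT wells of method A and 9.86 to 11.5 in every other 36-cycle culture. The copper importer Slc31a1 (16.0 and 25.7 TPM in these WT wells, 60.3 and 59.1 in the stabilized ones) and Slc35b4, Slc12a9 and Slc37a3 followed the same pattern, in which the WT wells of method A were the lowest of the 10 cultures. Slc35g2 was the one lower, with 55.0 and 49.6 TPM in WT and 26.8 and 24 in stabilized wells of method A. Over the 8 libraries of 36 cycles, the log2 fold change of stabilization differed between the methods in 59 of 95 members at an adjusted p under 0.05, against 49.6% of the 13357 genes tested. With 1 experiment for each genotype and method, such a difference cannot be told apart from one between experiments.

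**Figure D4:**
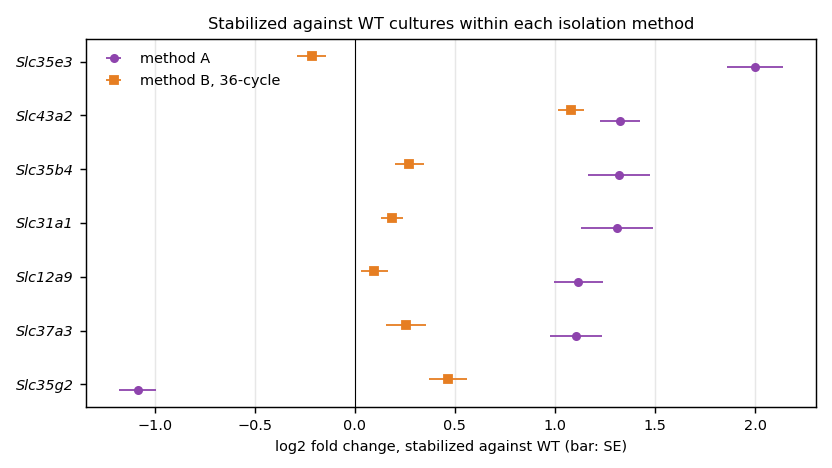
Log2 fold change of stabilized against WT cultures (x axis, bars are SE, n = 2 and 2 wells per method) for 7 of the 8 members called within an isolation method, for method A and 36-cycle method B. Slc43a2 lies at 1.33 ± 0.10 and 1.08 ± 0.06, while Slc35e3 lies at 2.0 ± 0.14 in method A and -0.22 ± 0.07 in method B.

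Open chromatin was a readout that had not entered the choice of members. A peak overlapping 1000 bases to either side of the start of a protein-coding transcript in the basic set of GENCODE M21 was present in both acutely isolated and all 6 WT cultured libraries for 87 of 98 members, against 49.7% of 21820 protein-coding genes. With the starts of all protein-coding transcripts and the 5′ end of the gene added, an alternative chosen after seeing the data, it was 89 of 98 against 50.5%. Expressed genes tend to have open promoters, and the members were chosen as expressed. The most different in level were among the 87. At Slc19a3 the fold enrichment was 9.82 and 8.30 in acutely isolated ECs and 6.78 to 10.2 in WT cultures, at Slc35f2 10.4 and 8.84 and 7.58 to 12.0, and at Slc19a2 18 and 16.4 and 11.0 to 14.6. A peak thus remained at the start of Slc19a3 and Slc35f2 in every culture, and one was present at Slc19a2 in acutely isolated ECs where its transcript was near 0. Libraries differed in their number of peaks, with 37384 and 31779 in the acutely isolated libraries and 33122 to 98732 in the WT cultures, so that a missing peak in a library of few peaks says less.

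In 11 members the basic starts differed between libraries or were closed in all of them. Slc26a10 was the one with a peak in both acutely isolated libraries (5.37 and 3.25-fold) and in no culture, a pattern of 0.266% of all genes. Slc1a3 had a peak in all cultures and no acutely isolated library, a pattern of 1.71% of all genes. By the basic starts Slc45a4 counted there as well, but at the 5′ end of its gene (chr15:73645071-73646254), which starts a transcript outside the basic set, a peak was in all 10 libraries (17.2 and 16.6-fold in the acutely isolated ones). At Slc1a3 the enrichment was 3.88 to 8.84 in the WT cultures, in which at most 10 counts of its transcript were found, so an open start went with almost no transcript. Slc7a3, like 32.9% of all genes, had no peak at its start in any of these libraries, including the acutely isolated ECs with 64.0 and 61.4 TPM. Slc6a8 and Slc23a2 lacked a peak in the method A cultures alone, which had 50395 and 33122 peaks. Slc4a2 did so by the basic starts, while at the 5′ end of its gene (chr5:24423239-24424258) a peak was in all 10 libraries, with 12.9 and 9.71-fold in the method A cultures. Slc38a11 and Slc6a20a had a peak in a single culture and in neither acutely isolated library. With stricter peaks Slc26a10 no longer counted in its group.

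**Figure D5:**
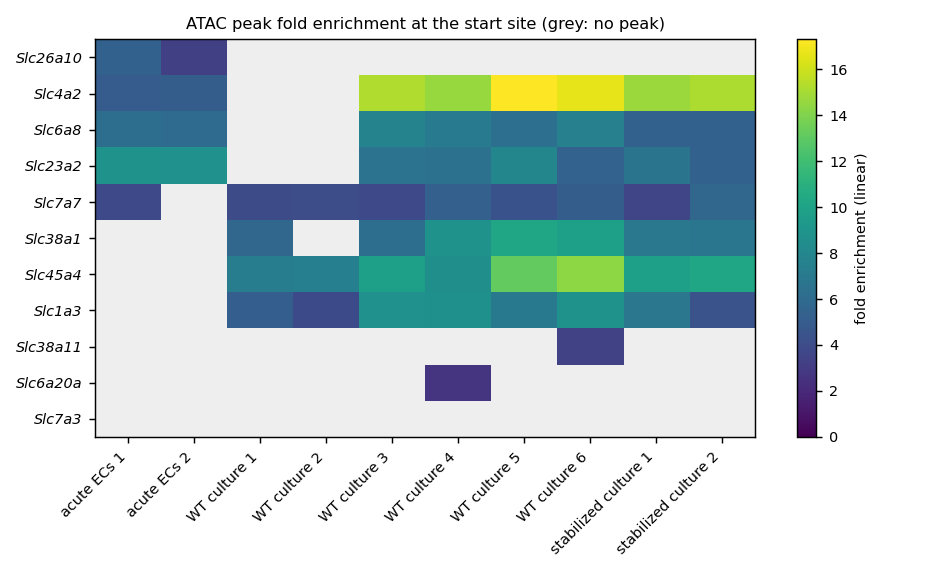
Fold enrichment over local background (colour, linear) of the strongest ATAC peak within 1000 bases of a basic transcript start of the 11 members without a peak there in every acutely isolated and WT cultured library (rows), in the 10 ATAC-seq libraries (columns, grey where no peak was called). Slc26a10 has values in the 2 acutely isolated columns alone, Slc1a3 in all 8 culture columns alone and Slc7a3 in none, and for Slc45a4 and Slc4a2 the 5′ end of the gene, which is not among the basic starts, had a peak in all 10 libraries.

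Peaks in the gene body or within 10000 bases of it were then sorted by where they were called. A region in both acutely isolated and no WT cultured library lay at 12 members (8.36% of all genes have one), one in all 6 WT cultured and no acutely isolated library at 30 (23.4% of all genes), and one shared by all 8 libraries at 94 (61.4%). The part that the lower number of acutely isolated peaks had in the WT-only count was not tested. Acute-only regions of 4 members are given as the 151 bases around the summit, 5′ to 3′ on the plus strand of GRCm38 (RefSeq genome sequence), none of them in an exon. Capitals mark matches on either strand to CTTTGAA or CTTTGAT (TCF/LEF), ACAATG (SOX), TGANTCA (AP-1), GGAATG (TEAD) or GGGCGG (SP/KLF), which can overlap each other.
Slc7a3 chrX:101078334-101078484: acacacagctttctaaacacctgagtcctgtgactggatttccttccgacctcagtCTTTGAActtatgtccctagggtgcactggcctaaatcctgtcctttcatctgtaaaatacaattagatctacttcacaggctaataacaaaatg
Slc35f2 chr9:53780550-53780700: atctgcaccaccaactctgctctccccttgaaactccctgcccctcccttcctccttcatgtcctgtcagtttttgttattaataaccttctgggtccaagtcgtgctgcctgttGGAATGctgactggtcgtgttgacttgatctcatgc
Slc35f2 chr9:53793574-53793724: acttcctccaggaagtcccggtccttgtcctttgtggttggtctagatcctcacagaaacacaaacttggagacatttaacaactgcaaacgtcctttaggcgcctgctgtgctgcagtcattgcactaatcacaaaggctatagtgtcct
Slc26a10 chr10:127181549-127181699: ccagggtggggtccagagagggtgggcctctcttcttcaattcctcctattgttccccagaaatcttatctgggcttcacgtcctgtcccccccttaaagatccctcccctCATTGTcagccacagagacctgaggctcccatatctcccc
Slc31a1 chr4:62366362-62366512: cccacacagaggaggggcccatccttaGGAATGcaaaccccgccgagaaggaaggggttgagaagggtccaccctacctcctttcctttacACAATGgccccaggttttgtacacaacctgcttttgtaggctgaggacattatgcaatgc

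The Slc7a3 region lay just beyond the 3′ end of the gene, 6943 bases from the nearest start site, with a fold enrichment of 13.2 and 14.4 in the acutely isolated libraries, the highest of the acute-only regions at members. Both Slc35f2 regions lay in introns, 9087 and 22111 bases from the start, with 5.57 and 3.67 and 3.80 and 3.13. The Slc26a10 region lay 979 bases upstream (4.53 and 3.25) and the Slc31a1 region in an intron (10.5 and 9.79). A match to the TCF/LEF letters was found in the Slc7a3 region and in 3 of the 14 acute-only regions at members. Over all genes such a match was in 20.9% of 3671 acute-only regions, 4.31% of 10206 WT-only regions and 3.24% of 16919 shared regions. A match says only that the letters are there.

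WT-only regions are shown for 4 members with higher levels in culture and for Slc1a3, chosen for an AP-1 match clear of exons.
Slc39a14 chr14:70333693-70333843: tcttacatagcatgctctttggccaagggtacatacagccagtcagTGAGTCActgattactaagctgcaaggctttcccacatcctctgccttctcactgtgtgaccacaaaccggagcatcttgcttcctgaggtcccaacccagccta
Slc33a1 chr3:63941651-63941801: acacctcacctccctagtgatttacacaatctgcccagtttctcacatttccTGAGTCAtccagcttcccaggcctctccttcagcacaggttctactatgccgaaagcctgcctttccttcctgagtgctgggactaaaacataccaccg
Slc39a11 chr11:113487723-113487873: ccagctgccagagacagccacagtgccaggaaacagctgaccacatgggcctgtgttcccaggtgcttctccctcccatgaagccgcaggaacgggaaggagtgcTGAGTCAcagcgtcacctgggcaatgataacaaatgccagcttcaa
Slc43a3 chr2:84961476-84961626: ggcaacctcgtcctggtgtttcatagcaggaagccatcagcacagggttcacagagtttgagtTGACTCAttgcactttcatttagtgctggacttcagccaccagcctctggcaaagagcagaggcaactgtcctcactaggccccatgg
Slc1a3 chr15:8717111-8717261: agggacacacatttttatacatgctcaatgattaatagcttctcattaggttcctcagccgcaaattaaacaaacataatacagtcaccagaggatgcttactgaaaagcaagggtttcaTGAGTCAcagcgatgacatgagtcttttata

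The Slc39a14 region lay in an intron, 430 bases from the start of a protein-coding transcript outside the basic set. Those of Slc33a1 and Slc39a11 lay in introns as well, and that of Slc43a3 beyond the end of its gene. The Slc1a3 region lay 6422 bases upstream of its start, at a gene with almost no transcript in these cultures. Fold enrichments over the 6 WT cultures were 6.61 to 20.9 at Slc39a14, 7.43 to 24.6 at Slc33a1 and 4.12 to 19.2 at Slc39a11. They were 17.6 to 24.8 at Slc43a3 and 4.84 to 20.8 at Slc1a3. Slc10a7 had 7 WT-only regions in or near the gene, Slc39a11 had 6, Slc45a4 had 4 and Slc43a2 had 3. These counts were not set against gene length. Slc10a7 (chr8:78509346-78734003) and Slc39a11 (chr11:113244853-113650079) are long genes. They also had 13 and 28 regions that were neither acute-only, WT-only nor shared. A match to TGANTCA was in 25 of 54 WT-only regions at members (46.3%) and in 0 of 14 acute-only ones. Over all genes it was in 46.5% of WT-only, 2.59% of acute-only and 9.95% of shared regions, so the members' regions had this match about as often as WT-only regions at large. A TEAD match was in 13 of the 54, and in 19.5% of all WT-only regions.

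At the start sites themselves the thiamine transporters differed in sequence. The 250 bases before each start are given from the RefSeq promoter table (GRCm38.p6), which held 74 of the 98 members, with the same marks.
Slc19a3 chr1:83038449-83038698 (- strand): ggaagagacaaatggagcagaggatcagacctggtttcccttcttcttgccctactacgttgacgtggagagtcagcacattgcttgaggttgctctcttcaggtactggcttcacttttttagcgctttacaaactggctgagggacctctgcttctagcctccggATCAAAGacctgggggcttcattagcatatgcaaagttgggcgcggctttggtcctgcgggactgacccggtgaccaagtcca
Slc19a2 chr1:164248796-164249045 (+ strand): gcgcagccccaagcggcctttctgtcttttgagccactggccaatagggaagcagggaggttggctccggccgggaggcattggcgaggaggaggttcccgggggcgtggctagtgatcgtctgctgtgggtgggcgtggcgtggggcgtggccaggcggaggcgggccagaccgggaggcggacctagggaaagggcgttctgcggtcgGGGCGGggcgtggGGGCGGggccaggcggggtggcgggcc

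The Slc19a3 promoter held a match to the TCF/LEF letters, found in 7.48% of 32817 promoters of this length and in 7 of 102 promoters of members. The Slc19a2 promoter held GGGCGG, found in 32.7% of all promoters and in 66 of the 102. Neither match was tested as a site.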

How the data were processed

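RNA-seq and ATAC-seq libraries were grouped by the labels. For RNA-seq the authors deposited Salmon (version 0.14.0) tables of estimated counts and TPM per GENCODE M21 transcript. Both were summed to gene symbols, and the estimated counts were rounded. TPM was also divided by the share that nuclear protein-coding genes held in each library, because short non-coding RNAs took unequal shares. Membership and the TPM minimum used TPM as deposited. For ATAC-seq the authors deposited MACS2 (version 2.1.2) peaks called per library on HISAT2 (version 2.1.0) alignments to GRCm38, with the fold enrichment, the −log10 p and q values and a score. Peaks with a fold over 2 and a −log10 q over 2 were kept.

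Counts were tested over all protein-coding genes that passed filterByExpr with edgeR's quasi-likelihood test (version 4.0.16, R 4.3.3, TMM scaling, Benjamini-Hochberg adjustment). The standard error of a log2 fold change was taken from its F statistic. Calls needed an adjusted p under 0.05, a fold over 2 and no replicate of the higher group under 5 TPM. DESeq2 (version 1.42.0), other scalings, an offset for transcript length, no filters, summed wells, a replicate block and leaving out each library were alternatives. The scripts were tested on simulated data with 200 changed genes. At an absolute log2 fold change of 2, 7.5% of these were recovered between culture and acute isolation. Between the sorted cells 0% were recovered at that size, and between the culture genotypes 83%. At an absolute log2 fold change of 4 the shares were 91.5, 89 and 100%. The data held far more called genes, 3275 of 13785 between culture and acute isolation and 2395 of 15101 between sorted cells. The adjustment of p is less strict there, so the shares for these comparisons do not measure how often a change was called. A missing call between culture and acute isolation or between sorted cells still does not show an unchanged level. Intergroup tests in cultures rest on wells.

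Genes were named by a rule: the 15 most abundant members of either EC group, up to 8 called and non-overlapping members in each direction of a comparison, members the study mentions, the 3 most abundant of each class, the 3 on either side of the threshold, those with a start-site peak in one group alone, and those whose response differed between methods. Slc23a2, Slc35a2, Slc39a13, Slc43a2 and Slc6a8 were named after their values had been seen. Some members that the rule selects are counted and not reported by name here. Members, lists and classes were chosen with earlier results of these data known.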

Additional observations from a re-analysis of the deposited data

Results flagged for a closer look

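Slc19a3 had 4.76 rescaled TPM in WT culture replicate 1, far from the next WT culture (2.44) relative to the range down to 1.42, and Slc5a3 had 10.0 in stabilized culture replicate 2 against 6.47 in the next and 6.33 in the lowest. Both passed Dixon's criterion at the 95% level, which chance passes in about 1 of 20 groups, and 156 groups of members were tested.

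The log2 fold change of stabilized against WT cultures differed between the isolation methods in 59 of 95 members at an adjusted p under 0.05 (edgeR interaction term). Among all 13357 genes tested the share was 49.6%. The difference, method B minus method A, was -2.19 for Slc35e3, -1.10 for Slc31a1, -1.02 for Slc35b4, -0.997 for Slc12a9 and -0.83 for Slc37a3. It was 1.57 for Slc35g2. Genotype within a method is 1 experiment of 2 wells, so these differences cannot be told apart from differences between experiments.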

How the results depend on the processing

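Calls between sorted cells rest on 2 libraries a group and those between cultures on wells, and estimated counts do not separate a change in level from one in the transcripts that reads were assigned to. With an offset for transcript length, Slc39a7 (-0.43) and Slc4a2 (-1.60) were lower in culture, and 7 members were higher and 5 lower in ECs than in GFP-negative cells. With the wells of an experiment summed, 7 members were lower in culture. Leaving out 1 library gave 13 to 21 members higher and 9 to 14 lower in culture, and 8 to 12 higher and 7 to 13 lower in ECs, the lowest counts of the latter without GFP-negative replicate 2 and replicate 1. For stabilization, method as a term over the 36-cycle cultures gave 1 member higher, method A alone 7 higher and 1 lower and method B alone 1 higher, and leaving out any library gave 0. The 36-cycle cultures without that term, an alternative chosen after seeing the data, gave 0. Leaving out 1 library, the interaction left 25 to 34 positive and 21 to 29 negative members, and scaling by library size gave 38 and 23.

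Stricter peaks left 0 members with a start-site peak in acutely isolated ECs alone, 1 in WT cultures alone, 3 in neither and 11 mixed, and a window of 250 bases gave 11 mixed. The starts of all protein-coding transcripts with the 5′ end of the gene, chosen after seeing the data, left 1 member with a peak in WT cultures alone. Leaving out 1 library gave 1 to 2 members without a start-site peak, 2 without WT replicate 4 or 6. The gene body alone gave 7 members with an acute-only region. Leaving out 1 library, chosen after seeing the data, gave 12 to 23 members with an acute-only region (23 without acute replicate 2) and 30 to 50 with a WT-only one (50 without WT replicate 2). A threshold of 4 or 6 TPM gave 103 or 94 members.

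Neither the labels nor the methods state that equal replicate numbers pair samples. Same-numbered libraries had correlated deviations of -0.035 and 0.025 between culture and acute isolation, 0.073 in the sorted cells and 0.526, 0.515, 0.007 and 0.071 between culture genotypes. With the replicate number as a block, 19 members were higher and 17 lower in culture, 10 higher and 11 lower in ECs, and 0 were called for stabilization.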
